A study of Mus musculus with 21 samples.

Results

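Genes that are hallmarks of megakaryocytes and platelets were followed through 7 cell fractions sorted from mouse bone marrow. The genes were Gp1ba, Gp5, Gp9, Vwf, Itga2b, Selp, Treml1, Pf4 and Ppbp, and they were 9 of the 18217 genes that the arrays measured under a RefSeq symbol. They were chosen by name rather than by a threshold on their levels, but with earlier results of these data known. Each was read from its brightest probe. Total RNA was hybridized to Agilent 1-colour whole mouse genome arrays, with 3 arrays for each fraction and 21 arrays in all.

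All fractions came from the bone marrow of C57BL/6 mice, and no allele or treatment is given for any of them. KLS denotes the multipotent progenitors, labelled lin- ckit+ sca1+. On the erythroid and megakaryocytic side, PreMegE was labelled CD150+ CD105- FGCrI/II-, CFUe was labelled CD150- CD105- FCGrI/II-, and Ter119 was CD71+ Ter119+. On the myeloid side, PreGM was labelled CD150- CD105- FGCrI/II-, GMP was CD150- FCGrI/II+, and Mac1Gr1 was Mac1+ Gr1+. The 4 intermediate fractions also carried the labels lin-, ckit+ and sca1+, so the labels give CFUe and PreGM the same gate, and the fractions are called here by their names. The lineage cocktail that defined lin- cells held an antibody against CD41, the product of Itga2b, alongside B220, CD3, CD4, CD8, Mac1, Gr1 and Ter119. Itga2b was thus measured in lin- cells gated against its own product, while the labels of Ter119 and Mac1Gr1 name no such gate. No mature megakaryocyte or platelet fraction was among the samples, and the labels do not say whether the 3 samples of a fraction came from separate animals.

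Megakaryocytes are the marrow cells that shed platelets. A platelet adheres to a damaged vessel through the GPIb-IX-V receptor complex, which grips von Willebrand factor, and aggregates through integrin alpha IIb beta III, which grips fibrinogen. Its alpha granules hold chemokines and von Willebrand factor, and the granule membrane carries P-selectin and TREM-like transcript 1, which reach the cell surface when the platelet is activated. PreMegE cells are progenitors that can give rise to both megakaryocytes and erythroid cells, whereas CFUe cells are committed to the erythroid lineage and GMP cells to granulocytes and macrophages.

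Levels below are log2 intensities relative to the 75th percentile of the same array, so that 0 is the brightness that lies at that percentile. They rank fractions for 1 gene but do not rank genes against each other, because each probe has its own affinity. Between 56.4% and 77.4% of the spots of an array were well above background, and the lowest 75th percentiles were on the Ter119 and Mac1Gr1 arrays. Several fractions carried markers of other cells. The summed level of 12 granulocytic markers ran from 12.20 to 12.53 on the arrays labelled Ter119 and from 12.36 to 12.53 on the Mac1Gr1 arrays, and 7 B cell markers summed to between 6.80 and 7.32 on the Ter119 arrays, above every other fraction. CFUe replicate 3 stood apart from the other CFUe arrays, with a granulocytic sum of 5.50 against 2.69 and 2.55. On the KLS arrays 11 macrophage markers summed to between 4.89 and 6.40, against 0.62 to 1.1 in PreMegE and 0.41 to 0.79 in PreGM, and all 11 were called lower in both fractions than in KLS. Of all probes tested, 8.86% were called lower in PreMegE than in KLS and 6.53% in PreGM than in KLS. Slamf1, which encodes CD150, was well above background on all 3 PreMegE and KLS arrays and on no CFUe, PreGM or GMP array. Ly6a, which encodes Sca1, averaged -3.14 in PreMegE against 2.57 in KLS. The part of these cells in the values below was not tested.

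The sequences immediately upstream of 4 members are shown because these members make up the most alike pair, Gp1ba and Gp5, and the closest neighbours in the genome, Pf4 and Ppbp. Each is the 250 bases before the start of the gene in RefSeq on GRCm38.p6, on the strand of the gene (for Gp1ba a start within the annotated span), and capitals mark the 6-base motifs searched on both strands: AGATAA and TGATAA, which GATA factors bind, GGAAGT, an ETS motif, TGTGGT, a RUNX motif, and TATAAA, the TATA box. Gp1ba (chr11:70638872-70639121, plus strand) and Gp5 (chr16:30310782-30311031, minus strand) each held 2 GATA motifs. Pf4 (chr5:90772185-90772434, plus strand) and Ppbp (chr5:90768268-90768517, plus strand) each held 1 ETS motif, and Ppbp also held 2 TATA boxes.
Gp1ba: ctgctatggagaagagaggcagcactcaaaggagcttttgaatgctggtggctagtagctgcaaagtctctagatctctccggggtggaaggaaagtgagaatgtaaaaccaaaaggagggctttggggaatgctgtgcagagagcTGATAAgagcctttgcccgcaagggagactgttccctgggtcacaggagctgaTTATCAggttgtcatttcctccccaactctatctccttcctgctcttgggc
Gp5: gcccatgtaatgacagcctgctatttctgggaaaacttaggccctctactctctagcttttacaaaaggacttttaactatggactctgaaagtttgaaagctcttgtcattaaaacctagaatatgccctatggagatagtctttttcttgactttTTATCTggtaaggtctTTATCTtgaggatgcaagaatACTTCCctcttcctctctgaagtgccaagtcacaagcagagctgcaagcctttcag
Pf4: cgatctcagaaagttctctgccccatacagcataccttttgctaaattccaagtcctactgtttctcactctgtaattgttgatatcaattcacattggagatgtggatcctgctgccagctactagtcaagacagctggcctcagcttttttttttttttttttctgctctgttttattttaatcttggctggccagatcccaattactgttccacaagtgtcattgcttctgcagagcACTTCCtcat
Ppbp: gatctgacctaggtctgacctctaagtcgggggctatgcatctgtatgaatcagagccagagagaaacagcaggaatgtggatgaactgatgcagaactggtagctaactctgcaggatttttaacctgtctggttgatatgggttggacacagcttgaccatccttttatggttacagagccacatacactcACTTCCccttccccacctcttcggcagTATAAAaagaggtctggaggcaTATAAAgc
Windows were given for 8 of the 9 members, Vwf being the exception. A GATA motif of either spelling was in 2 of the 8 windows and in 16.6% of all 32851 windows of this length. GGAAGT was in 5 of the 8 windows, those of Pf4, Ppbp, Gp5, Gp9 and Itga2b, and in 19.7% of all windows. TGTGGT was in 1 window, that of Gp9, against 14.0% of all windows, and TATAAA was in 1, that of Ppbp, against 12.4%. The window of Gp9 (chr6:87777820-87778069, plus strand) lies inside the annotated span of the gene, before a start within it. The windows of Treml1 and Selp held none of these letters. A motif match is a description of the sequence, and binding was not measured here.

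PreMegE was the fraction in which most of the members peaked. For 8 of the 9 members, all 3 PreMegE arrays were above every array of the other 6 fractions, a pattern found in 2.36% of the 29532 probes tested. Selp was the exception and on these levels was highest in Mac1Gr1. Under scaling by spike-in controls, Selp was -0.44 from KLS to PreGM, -0.97 from PreGM to GMP and 0.58 from GMP to Mac1Gr1. Mac1Gr1 then lay below PreGM and KLS. Ppbp was above KLS in PreMegE by only 0.36 ± 0.23, which was not past the test (limma adjusted p = 0.273). Under spike-in scaling this difference turned to -0.097. Below the peak the members parted. Gp1ba, Gp5 and Vwf had their second highest level in CFUe, Pf4 and Ppbp in KLS, Itga2b and Treml1 in PreGM, and Gp9 in Ter119. For Treml1 and Gp9 the arrays of that fraction overlapped those of KLS. With arrays scaled by their spike-in controls, Treml1 was -0.20 from KLS to PreGM and Gp9 -0.33 from CFUe to Ter119. All 9 members differed among the 7 fractions in limma's F test, as did 94.7% of the probes tested. In bulk samples of this kind, a higher share of cells that express a gene and more RNA per cell cannot be told apart.

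**Figure D1:**
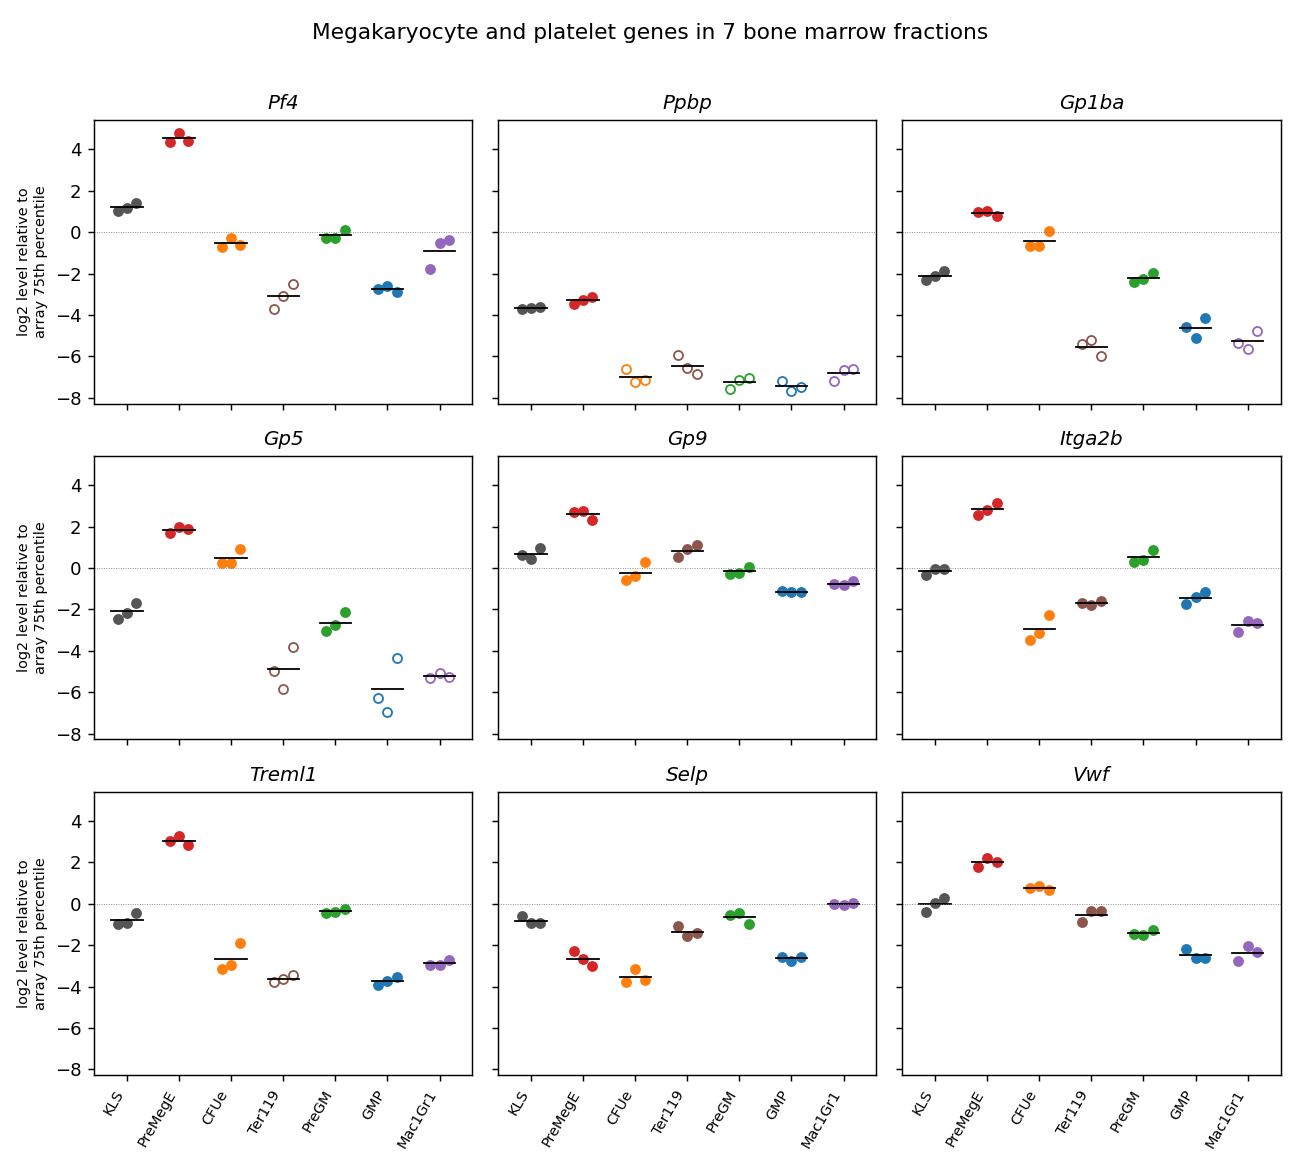
Level of each gene on each of the 21 arrays, as log2 intensity relative to the array's 75th percentile, with 1 panel for each gene, 3 points for each fraction and a line at their mean. Open points mark fractions in which fewer than 3 arrays were well above background. PreMegE stands above all other fractions in every panel but that of Selp. For Ppbp its difference from KLS was not past the test and turned to -0.097 under spike-in scaling.

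The GPIb-IX-V complex is built from the products of Gp1ba, Gp1bb, Gp9 and Gp5. Gp1ba encodes the chain that binds von Willebrand factor and lies on chromosome 11 at 70639102 to 70643986. Its level was -2.29, -2.12 and -1.89 on the KLS arrays, 0.98, 1.02 and 0.77 on the PreMegE arrays and -0.67, -0.67 and 0.06 on the CFUe arrays. The PreGM arrays gave -2.39, -2.24 and -1.99, and the GMP arrays gave -4.59, -5.10 and -4.17. PreMegE and CFUe thus lay above every array of the other fractions, and KLS and PreGM overlapped. Gp1ba was well above background on none of the 3 Ter119 arrays and none of the 3 Mac1Gr1 arrays. It rose by 3.02 ± 0.27 (log2, ± SE) from KLS to PreMegE, or 8.13-fold (limma adjusted p = 2.22e-07). From PreMegE to CFUe it fell by 1.35 ± 0.27 (limma adjusted p = 0.000513), and from CFUe to Ter119 by at least 15.8-fold. This and later bounds set the bright fraction against the dimmest signal that was well above background on the arrays of the dim one. CFUe remained 18.3-fold above GMP (limma adjusted p = 9.02e-10).

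Gp5 encodes the chain of the complex that thrombin cleaves and lies on chromosome 16 at 30307685 to 30310781. Its level was -2.47, -2.16 and -1.67 in KLS, 1.67, 1.97 and 1.89 in PreMegE and 0.22, 0.26 and 0.91 in CFUe. In PreGM it was -3.06, -2.75 and -2.13, while 1 array in GMP, 1 in Ter119 and none in Mac1Gr1 rose well above background. The GMP arrays gave -6.26, -6.96 and -4.37. PreMegE and CFUe were again clear of the other fractions and of each other. The rise from KLS to PreMegE was 3.95 ± 0.53, or 15.4-fold (limma adjusted p = 2.28e-05), the largest estimate of the 9 members at that step, though within its error of Treml1. The fall from PreMegE to CFUe was 1.38 ± 0.53, with a limma adjusted p of 0.0395 that did not survive the loss of any of PreMegE replicates 1, 2 and 3 or CFUe replicates 1 and 2 (adjusted p between 0.0597 and 0.105), nor a slide block (adjusted p = 0.0729). CFUe was 80.3-fold above GMP (limma adjusted p = 2.66e-08), and without GMP replicate 3, the only GMP array well above background, that log2 difference moved from 6.33 to 7.08. The difference between GMP and PreGM moved in the same way, from -3.22 to -3.97.

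Gp9 encodes the small chain that holds the complex at the cell surface and lies on chromosome 6 at 87776131 to 87779786. It was well above background on all 21 arrays in this study. Its level was 0.60, 0.45 and 0.98 in KLS, 2.72, 2.76 and 2.30 in PreMegE and -0.57, -0.39 and 0.30 in CFUe, so that CFUe had returned below KLS. On the Ter119 arrays it was 0.51, 0.90 and 1.09, above all CFUe arrays and overlapping KLS. On the myeloid side it was -0.28, -0.26 and 0.05 in PreGM, -1.13, -1.17 and -1.17 in GMP and -0.79, -0.84 and -0.64 in Mac1Gr1. Gp9 rose 3.78-fold from KLS to PreMegE (limma adjusted p = 2.33e-06) and fell 7.03-fold to CFUe (limma adjusted p = 1.2e-08). Its rise from CFUe to Ter119 was 1.05 ± 0.21 (limma adjusted p = 0.00023). That rise dropped under 2-fold, to between 0.88 and 0.97, without CFUe replicate 1, CFUe replicate 2 or Ter119 replicate 3, and its sign turned to -0.33 when arrays were scaled by their spike-in controls.

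Vwf encodes von Willebrand factor, the adhesive ligand of the GPIb-IX-V complex, which megakaryocytes and endothelial cells store and release. It lies on chromosome 6 at 125552948 to 125686679. Its level was -0.39, 0.03 and 0.28 in KLS, 1.78, 2.19 and 2.03 in PreMegE and 0.74, 0.85 and 0.67 in CFUe. The Ter119 arrays gave -0.88, -0.36 and -0.36, the PreGM arrays -1.46, -1.51 and -1.29, the GMP arrays -2.19, -2.65 and -2.63 and the Mac1Gr1 arrays -2.75, -2.06 and -2.31. On these levels the 3 fractions of the erythroid side were all above the 3 of the myeloid side with no overlap. Whether that order held under spike-in scaling was not tested. That scaling moved the median change over all probes from CFUe to Ter119 from 0.05 to -1.33. It moved Vwf from GMP to Mac1Gr1 from 0.11 to -1.92. Vwf rose 4.08-fold from KLS to PreMegE (limma adjusted p = 8.82e-07), then fell by 1.25 ± 0.21 to CFUe and by 1.28 ± 0.21 to Ter119 (limma adjusted p = 7.34e-05 and 2.31e-05). With the slide as a block the difference between CFUe and PreMegE was -0.97, under the 2-fold minimum. Vwf fell 2.62-fold from KLS to PreGM (limma adjusted p = 0.000126) and 2.1-fold from PreGM to GMP (limma adjusted p = 0.000907), the second under 2-fold with the slide block (-0.93), under quantile scaling (-0.95) and normexp background correction (-0.86) and without GMP replicate 2 (-0.99), and at -0.06 under spike-in scaling. A second, dimmer Vwf probe gave the same directions in those comparisons, with -1.14 between CFUe and PreMegE and -1.23 between GMP and PreGM, neither past the test. Of 10 endothelial markers, 9 were well above background on all 3 KLS arrays, 8 on all 3 PreMegE arrays and 4 on all 3 CFUe arrays, and Cdh5, which defines endothelial junctions, on none of these arrays. From KLS to PreMegE, 5 of the 10 were called lower and 1, Tek, higher, against 8.86% and 3.55% of all probes. The summed level of the list was 4.81 to 5.04 in KLS, 3.30 to 3.39 in PreMegE and 3.65 to 3.93 in CFUe, and its part in the level of Vwf was not tested.

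Itga2b encodes integrin alpha IIb, the CD41 antigen that the lineage cocktail removed from the lin- fractions, and lies on chromosome 11 at 102453297 to 102469883. Its transcript was 2.57, 2.82 and 3.13 on the PreMegE arrays, against -0.32, -0.03 and -0.03 in KLS. CFUe gave -3.47, -3.16 and -2.29, and Ter119 gave -1.71, -1.77 and -1.60. PreGM gave 0.31, 0.36 and 0.88, above every KLS array, and GMP and Mac1Gr1 gave -1.77, -1.40 and -1.19 and -3.10, -2.56 and -2.66. Itga2b was therefore lowest in CFUe and Mac1Gr1, which overlapped. The difference from KLS to PreMegE was 2.97 ± 0.26, or 7.83-fold (limma adjusted p = 1.5e-07), and from PreMegE to CFUe -5.82 ± 0.26, or 56.3-fold lower (limma adjusted p = 3.38e-11). CFUe was 2.87-fold below GMP (limma adjusted p = 9.67e-05), the reverse of Gp1ba, Gp5 and Vwf. The later difference from CFUe to Ter119 was 1.28 ± 0.26 (limma adjusted p = 0.000251), but it was 0.73 under quantile scaling and -0.10 under spike-in scaling.

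Treml1 encodes TREM-like transcript 1, a receptor stored in the alpha granule membrane, and lies on chromosome 17 at 48359916 to 48367176. Its level was -0.97, -0.91 and -0.44 in KLS, 3.03, 3.27 and 2.83 in PreMegE and -3.14, -2.95 and -1.88 in CFUe. PreGM gave -0.44, -0.40 and -0.24 and GMP gave -3.93, -3.73 and -3.56, so GMP lay below every CFUe array. Ter119, with 2 arrays well above background, gave -3.78, -3.62 and -3.46, and Mac1Gr1 gave -2.96, -2.98 and -2.70, above both Ter119 and GMP. It rose 14.1-fold from KLS to PreMegE (limma adjusted p = 4.5e-09) and fell 52-fold to CFUe (limma adjusted p = 2.82e-11). The myeloid side fell 10.4-fold from PreGM to GMP (limma adjusted p = 4.15e-08). CFUe replicate 3, at -1.88, was the highest CFUe array, and without it the difference between CFUe and GMP moved from 1.08 to 0.69, and without GMP replicate 1 to 0.99, both under 2-fold.

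Selp encodes P-selectin, the granule membrane receptor by which activated platelets hold leukocytes, and lies on chromosome 1 at 164115264 to 164150026. It was the only member called lower from KLS to PreMegE, but it fell with most of the others from PreGM to GMP. Its level was -0.60, -0.94 and -0.94 in KLS, -2.27, -2.68 and -3.02 in PreMegE and -3.79, -3.13 and -3.67 in CFUe, with no overlap between the 3 fractions. Ter119 gave -1.09, -1.58 and -1.43, PreGM -0.52, -0.46 and -0.97, GMP -2.60, -2.75 and -2.55 and Mac1Gr1 -0.04, -0.05 and 0.02. Mac1Gr1 was the highest fraction on all 3 arrays on these levels, but under spike-in scaling it lay below PreGM and KLS. Selp fell 3.55-fold from KLS to PreMegE (limma adjusted p = 2.87e-06) and 3.96-fold from PreGM to GMP (limma adjusted p = 1.89e-06). The terminal steps were upward, by 2.16 ± 0.20 from CFUe to Ter119 (limma adjusted p = 3.89e-08) and by 2.61 ± 0.20 from GMP to Mac1Gr1 (limma adjusted p = 3.32e-09), and under spike-in scaling both kept their sign but were under 2-fold, at 0.78 and 0.58. A second Selp probe gave the same directions, with -2.06 from KLS to PreMegE, 2.79 from CFUe to Ter119 and 3.66 from GMP to Mac1Gr1, all called. The summed macrophage markers, high in KLS, were 3.84 to 4.04 in Ter119 and 5.46 to 5.51 in Mac1Gr1, and in PreGM, where Selp overlapped KLS, 0.41 to 0.79. Their part in the level of Selp was not tested.

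Pf4 and Ppbp encode the alpha granule chemokines platelet factor 4 and pro-platelet basic protein. They are neighbours on chromosome 5, where Ppbp (90768518 to 90770063) ends 2371 bases before Pf4 (90772435 to 90773383) begins. Pf4 was 1.03, 1.18 and 1.43 in KLS and 4.36, 4.79 and 4.43 in PreMegE. It was -0.71, -0.30 and -0.61 in CFUe, -0.28, -0.27 and 0.09 in PreGM and -2.74, -2.61 and -2.89 in GMP. The Mac1Gr1 arrays gave -1.77, -0.54 and -0.39, all above GMP, and 2 of the 3 Ter119 arrays, which gave -3.70, -3.08 and -2.50, were well above background. Pf4 rose 9.97-fold from KLS to PreMegE (limma adjusted p = 3.8e-07) and fell 33.5-fold to CFUe (limma adjusted p = 1.33e-09). It was 2.58-fold lower in PreGM than in KLS (limma adjusted p = 0.00425; 0.0609 once slides were entered as a block). Its difference of 1.84 ± 0.31 between Mac1Gr1 and GMP (limma adjusted p = 4.32e-05) turned to -0.19 under spike-in scaling.

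Ppbp gave a dim signal throughout. Its level was -3.71, -3.66 and -3.60 in KLS and -3.48, -3.26 and -3.14 in PreMegE, and no array of CFUe, Ter119, PreGM, GMP or Mac1Gr1 was well above background. The PreMegE arrays were above the KLS arrays without overlap, but the difference of 0.36 ± 0.23 was not past the test (limma adjusted p = 0.273). It turned to -0.097 under spike-in scaling. PreMegE was at least 3.92-fold above PreGM and at least 2.97-fold above CFUe, and KLS was at least 3.05-fold above PreGM. The limma adjusted p of 1.98e-09, 1.61e-09 and 2.06e-08 in these comparisons belong to the measured differences, which set KLS or PreMegE against signals at background, and the probe passed the filter on dim probes through KLS and PreMegE alone. Under normexp background correction the difference between CFUe and PreMegE was -0.90 and that between PreGM and KLS -0.67, both under 2-fold. Pf4 passed the test from KLS to PreMegE and the adjacent gene did not, and the difference between the genes was not itself tested.

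Counted over the members, the first step on the erythroid side, from KLS to PreMegE, raised 7 of 9 and lowered 1, Selp, against 3.55% of all probes tested that were called higher and 8.86% called lower. Called means a Benjamini-Hochberg adjusted p under 0.05 over all 29532 probes tested and a change of at least 2-fold. From PreMegE to CFUe, 8 members were lower and none was higher, against 14.7% of all probes lower and 9.96% higher. Only Selp missed the call, at -0.88 ± 0.20, and its second probe, above background on no CFUe array, passed it at -1.74. From CFUe to Ter119, 3 members were higher (Gp9, Itga2b and Selp) and 4 lower (Pf4, Gp1ba, Gp5 and Vwf), against 29.2% and 28% of all probes. Under spike-in scaling these counts were 0 higher and 5 lower, with Gp9 and Itga2b turning sign, and under quantile scaling 2 higher and 5 lower. Of the 29532 probes, 20624 were called in either direction under spike-in scaling and 16642 under quantile scaling. The median change of the members was 2.97 at the first of these steps, -2.81 at the second, or -1.57 with Ppbp at its bound, and -0.96 at the third, against medians over all probes tested of 0.13, 0.12 and 0.05.

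On the myeloid side the members mostly fell up to GMP. From KLS to PreGM, 3 were lower (Pf4, Ppbp and Vwf) and none was higher, against 6.53% of all probes lower and 2.11% higher. From PreGM to GMP, 7 were lower and none was higher, against 6.36% and 4.01%. Gp9, at -0.99 ± 0.21, and Ppbp, not above background in either fraction, were the others. Under spike-in scaling 4 members were lower at this step and 0 higher, as Itga2b (-0.95), Selp (-0.97) and Vwf (-0.06) lost their calls. That scaling called 14518 of the 29532 probes tested, in either direction, against 3061 in the main fit. From GMP to Mac1Gr1, 2 were higher (Pf4 and Selp) and 1 lower (Itga2b), against 29.1% and 27.6% of all probes, with Pf4 turning sign under spike-in scaling. The median change of the members at these 3 steps was -0.54, -1.98 and 0.62, the last 0.11 with members at their bounds, against 0.06, -0.02 and 0.17 for all probes tested.

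The sides were also compared stage by stage. PreMegE exceeded PreGM for 8 members and was lower for 1, Selp, against 5.81% of all probes called higher and 6.23% lower. The folds ran from at least 3.92 for Ppbp and 5.02 for Itga2b to 25.7 for Pf4, and 2 slides that held both fractions each gave the same direction for all 9 members. CFUe exceeded GMP for 5 members (Pf4, Gp1ba, Gp5, Treml1 and Vwf) and was lower for 1 (Itga2b), against 12.1% and 14.2%, and with the slide block Selp was called lower as well (-1.01). Under spike-in scaling 3 were higher and 2 lower, as Pf4 lost its call (0.83, limma adjusted p = 0.0599), Treml1 turned to -0.29 and Selp was called lower (-2.27). That scaling called 17625 of the 29532 probes tested, in either direction, against 7768 in the main fit. Ter119 exceeded Mac1Gr1 for 3 (Gp9, Itga2b and Vwf) and was lower for 2 (Pf4 and Selp), against 22% and 19.9%. The balance turned to 1 higher and 3 lower under spike-in scaling, with Gp9 at 0.87, Itga2b at 0.35 and Treml1 called at -1.46, and to 2 higher and 3 lower under quantile scaling, while normexp gave 2 higher and 0 lower. Over all probes, 14504 were called under spike-in scaling, 12273 under quantile scaling and 7180 under normexp, against 12388 in the main fit. In that last pair Vwf differed by 1.84 ± 0.21 (limma adjusted p = 6.17e-07), while Itga2b, at 1.08 ± 0.26, was under 2-fold without Mac1Gr1 replicate 1 (0.92) and under quantile scaling (0.83).

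**Figure D2:**
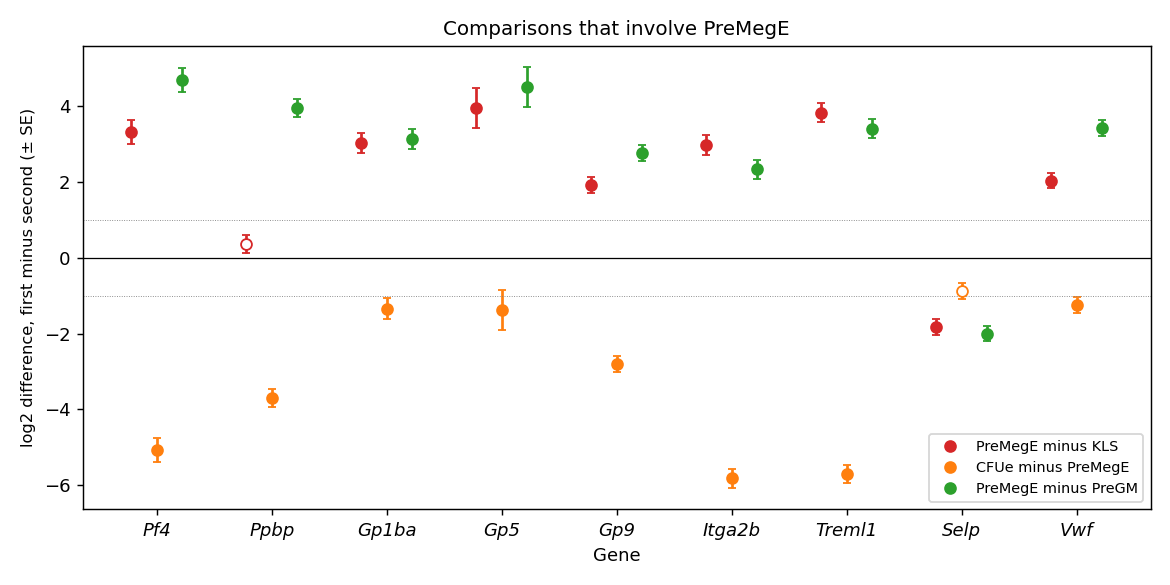
Log2 difference between fractions, with its standard error, for each gene in the 3 comparisons that involve PreMegE. Filled points were called, open points were not, and dotted lines mark 2-fold. Ppbp was not called against KLS, Selp was lower in PreMegE than in KLS and PreGM and not called against CFUe, and every other point was called with PreMegE the higher.

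Whether the second step differed between the sides was tested as the difference of the 2 changes, CFUe minus PreMegE less GMP minus PreGM. The test was passed by 7 of 9 members and by 20.2% of all probes. Itga2b fell more on the erythroid side, by 3.85 ± 0.36 (limma adjusted p = 4.97e-07), as did Pf4 and Treml1, and Gp9, whose myeloid change was not called, differed in the same direction. Ppbp also passed, but of the 4 fractions it was above background in PreMegE alone, so its difference has no measured size, and under normexp it was -0.47, under 2-fold. For Gp1ba and Selp the difference ran the other way, at 1.06 ± 0.38 and 1.11 ± 0.29 (limma adjusted p = 0.0413 and 0.00668). The call of Gp1ba was lost with the slide block (1.23, adjusted p = 0.067), with no filter on dim probes (adjusted p = 0.064) and under normexp (0.18), and that of Selp with the mean of its probes (0.81). Under spike-in scaling these 2 turned to -0.47 and -0.42. For Vwf the 2 falls differed by -0.18 ± 0.29 (limma adjusted p = 0.677), and this turned to -1.71, past the test, under spike-in scaling.

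**Figure D3:**
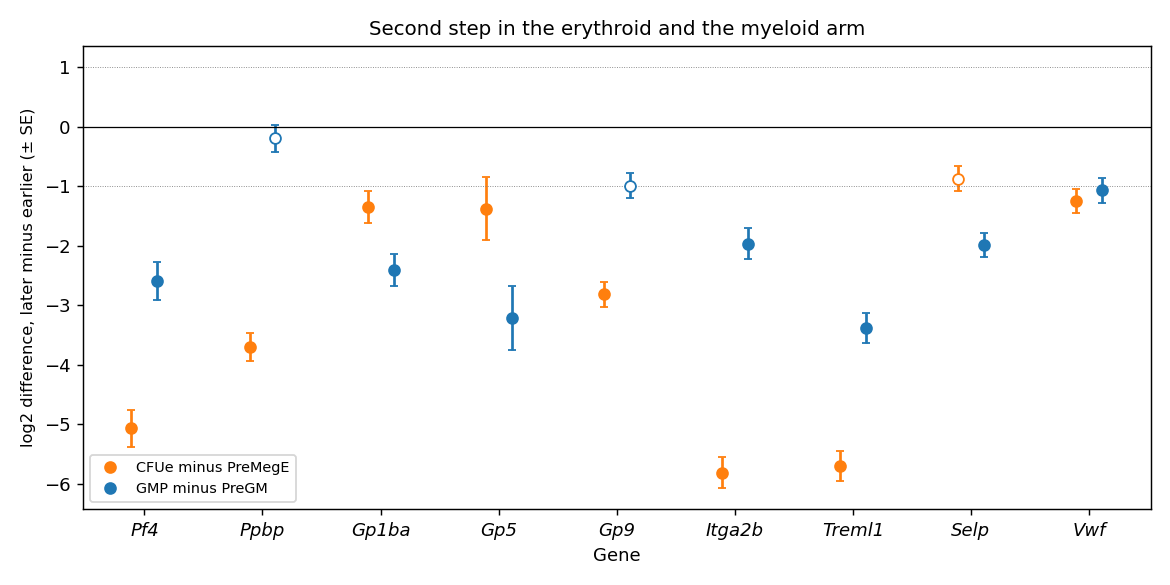
Log2 change, with its standard error, of each gene over the second step of the erythroid side (CFUe minus PreMegE) and of the myeloid side (GMP minus PreGM). Filled points were called and open points were not. Ppbp was above background in PreMegE alone of these fractions. The orange points of Pf4, Ppbp, Itga2b, Treml1 and Gp9 lie below the blue ones, and those of Gp1ba, Gp5 and Selp lie above. That of Vwf lies slightly below. For Gp5 and Vwf the difference of the 2 changes was not past the test (limma adjusted p = 0.0707 and 0.677).

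At the third step the same contrast, Ter119 minus CFUe less Mac1Gr1 minus GMP, was passed by 6 of 9 members and by 39.9% of all probes. The difference was -6.00 ± 0.75 for Gp5, -4.45 ± 0.38 for Gp1ba and -4.40 ± 0.44 for Pf4 (limma adjusted p = 4.04e-06, 5.57e-08 and 3.22e-07). Pf4 fell on the erythroid side and rose on the myeloid side. Gp1ba was well above background on no Ter119 or Mac1Gr1 array, and Gp5 on 1 GMP, 1 Ter119 and no Mac1Gr1 array, so the sizes given for these 2 rest on signals at background. The differences of Treml1 and Vwf were also negative, at -1.82 ± 0.35 and -1.40 ± 0.29, but Treml1 was at -0.78 under normexp and Vwf at -0.75 under spike-in scaling (adjusted p = 0.24). Itga2b was the only member of the 6 with a positive difference, at 2.60 ± 0.36 (limma adjusted p = 1.35e-05). Scaling bears on these steps more than on the earlier ones. Over all probes tested, the median change from GMP to Mac1Gr1 was 0.17 under the 75th percentile and -1.86 under spike-in scaling, and from CFUe to Ter119 it was 0.05 and -1.33. The count of members called from GMP to Mac1Gr1 changed accordingly from 2 higher and 1 lower to 0 higher and 7 lower. Of the 29532 probes tested, 16753 were called at this step under the 75th percentile and 22567 under spike-in scaling.

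**Figure D4:**
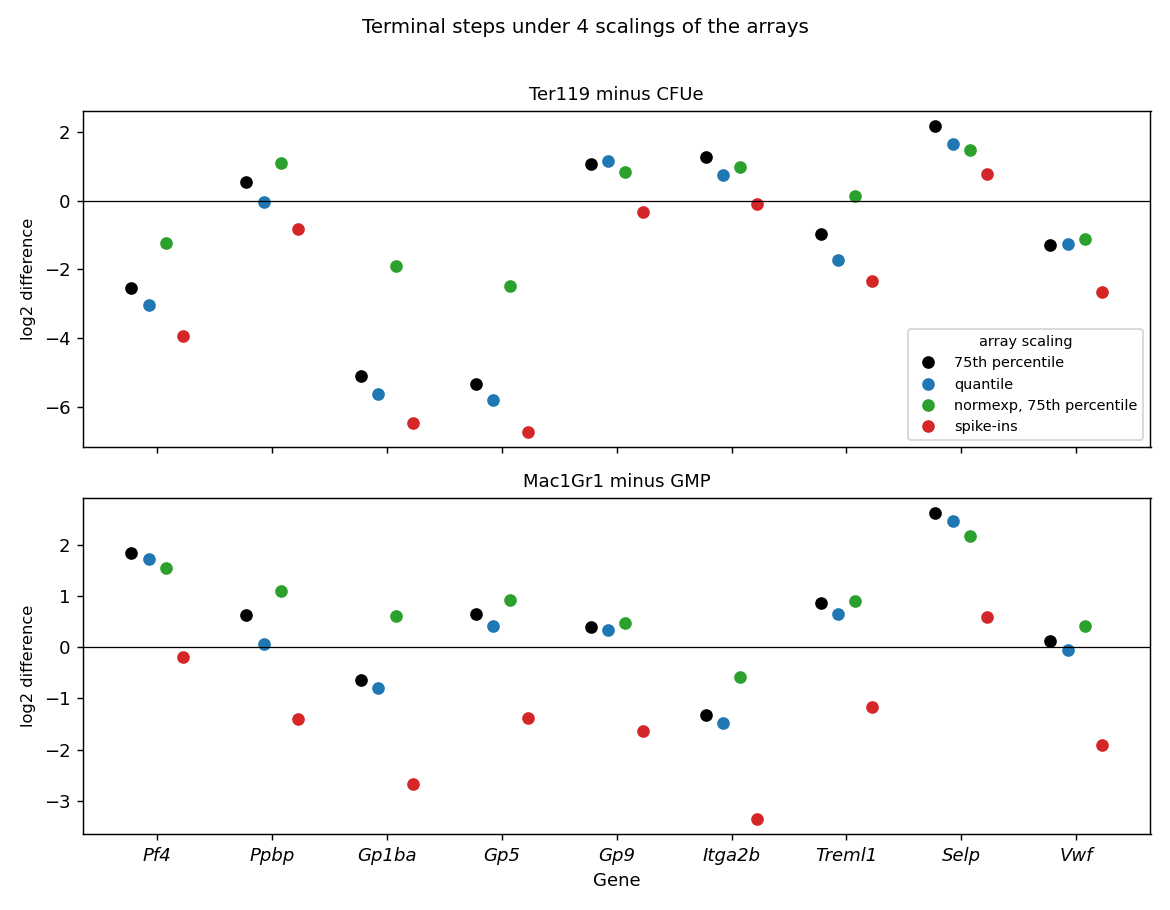
Log2 difference of each gene between Ter119 and CFUe (upper panel) and between Mac1Gr1 and GMP (lower panel), each point 1 of 4 ways of scaling or background-correcting the arrays. The red points, scaled by the spike-in controls, lie lowest for each gene in both panels, and Selp alone stays above 0 under all 4 in both.

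Other genes of the pathway were taken from 4 lists, also chosen with earlier results of these data known. Of 13 transcription factors of megakaryocytes with a probe, 4 were higher in PreMegE than in KLS and none was lower, against 3.55% and 8.86% of all probes: Gata1 (4.45 ± 0.24), Gata2 (2.46 ± 0.21), Gfi1b (2.39 ± 0.17) and Zfpm1 (2.10 ± 0.20), the last a cofactor of GATA1. From PreMegE to CFUe, Gfi1b alone was higher (1.22 ± 0.17) and 8 were lower, against 9.96% and 14.7% of all probes, among them Meis1 (-6.67 ± 0.47), Erg (-5.55 ± 0.53), Fli1 (-4.50 ± 0.31) and Mef2c (-4.06 ± 0.29). Fli1 and Erg are ETS factors. Erg and Meis1 were well above background on 1 CFUe array each. Each named value was called by limma over all probes.

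Of 17 other platelet receptors and adhesion molecules tested, 6 were higher in PreMegE than in KLS and 5 lower, against 3.55% and 8.86% of all probes. The largest rises were of P2ry1 (3.81 ± 0.20), an ADP receptor, and F2r (2.90 ± 0.37), a thrombin receptor, followed by Gp1bb (2.54 ± 0.20), the remaining chain of the GPIb-IX-V complex. Those that fell included Jam3 (-2.56 ± 0.35) and Tbxa2r (-2.36 ± 0.32), the thromboxane receptor. From PreMegE to CFUe, 14 of the 17 were lower, against 14.7% of all probes, among them Itgb3 (-6.39 ± 0.29), the partner chain of integrin alpha IIb. Itgb3 was well above background on 1 CFUe array. Only Cd36, a scavenger receptor, was higher, by at least 6.85-fold, against 9.96%. Against PreGM, PreMegE was higher for 7 and lower for 1, Pecam1 (-1.34 ± 0.21), where 5.81% and 6.23% of all probes were.

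Granule and secreted proteins outside the 9 members showed no single direction at the first step. Of 16 tested, 3 were higher in PreMegE than in KLS, Serpine2 (2.36 ± 0.45), Rab27b (2.36 ± 0.46) and Tgfb1 (1.06 ± 0.14), and 2 were lower, Clu (-2.58 ± 0.31) and Nbeal2 (-1.16 ± 0.22), against 3.55% and 8.86% of all probes. Rab27b guides granule release and Nbeal2 is needed to form alpha granules. The median change was 0.04, below the 0.13 of all probes tested. From PreMegE to CFUe 11 were lower and none was higher, where 14.7% and 9.96% of all probes were, with Plek (-5.69 ± 0.24), a substrate of protein kinase C in platelets, and Angpt1 (-4.21 ± 0.34) at the head, and under normexp the count was 6. Normexp called 4069 of all probes tested in that comparison, in either direction, against 7291 in the main fit. PreMegE was higher than PreGM for 4 and lower for 4, against 5.81% and 6.23% of all probes, among the latter F13a1 (-5.81 ± 0.71), a clotting factor subunit.

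Of 19 genes of the platelet skeleton and its signalling enzymes, 5 were higher in PreMegE than in KLS and 2 lower, against 3.55% and 8.86% of all probes. Cavin2 (4.39 ± 0.42), a caveola coat protein, and Tuba8 (3.44 ± 0.22), an alpha tubulin, rose most, and Plcg2 (-1.30 ± 0.23) fell most. From PreMegE to CFUe 11 were lower and none was higher, against 14.7% and 9.96%. Cavin2 (-8.30 ± 0.42), Ptgs1 (-8.05 ± 0.51), the cyclooxygenase of platelets, and Tbxas1 (-7.95 ± 0.52), thromboxane synthase, had the largest falls, each with 1 CFUe array well above background. PreMegE exceeded PreGM for 8 and was lower for 1, against 5.81% and 6.23%. The median change from PreMegE to CFUe was -3.04 here, -1.65 for the transcription factors, -2.54 for the receptors and -1.47 for the granule proteins, against 0.12 for all probes tested. With genes at their bounds it was -2.20 for the receptors and -1.06 for the granule proteins, and the same for the other lists.

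**Figure D5:**
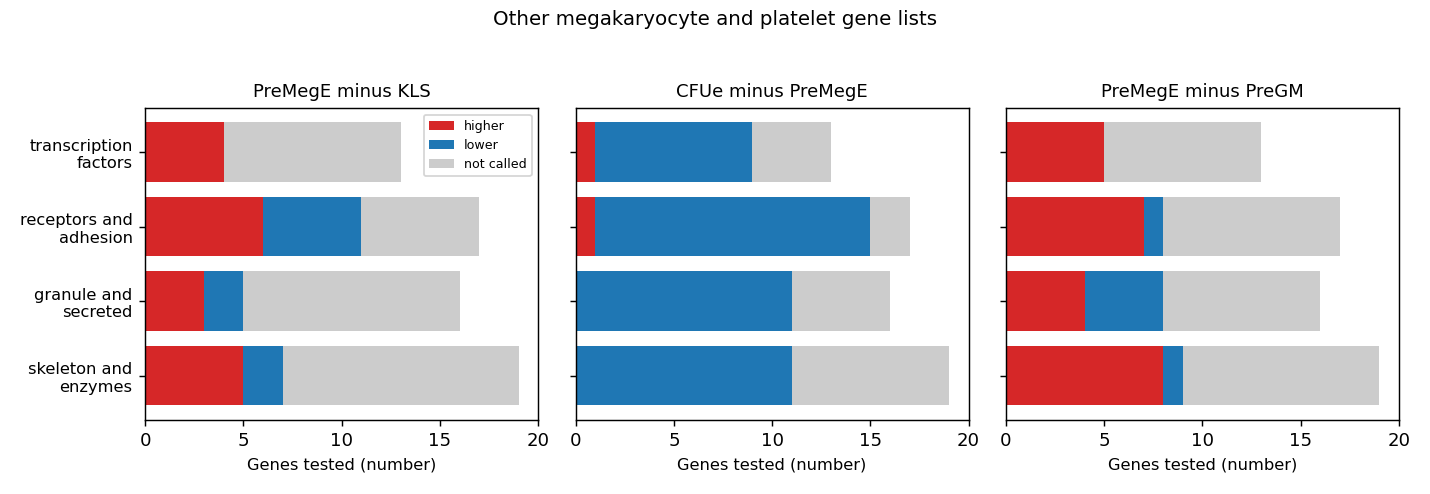
Number of genes tested in each of 4 lists that were called higher, called lower or not called in 3 comparisons. Blue bars fill most of the middle panel, CFUe minus PreMegE, where 44 of the 65 genes tested over the 4 lists were lower and 2 higher, against 14.7% and 9.96% of all probes.

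The members were also set against each other and against all genes by Pearson correlation of their levels over the 21 arrays. The arrays share fractions, so these values describe likeness of pattern only. The most alike members were Gp1ba and Gp5 (r = 0.952), then Pf4 and Treml1 (r = 0.944) and Itga2b and Treml1 (r = 0.906). Gp9, a partner of Gp1ba and Gp5 in the same complex, was less like them, at 0.59 and 0.67, than like Vwf, at 0.835. Pf4 and Ppbp gave 0.795. Values that involve Ppbp, Gp1ba or Gp5 rest in part on signals at background. Selp had a negative r with each of the other 8 members, from -0.512 with Gp1ba to -0.0187 with Ppbp.

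Among 14150 other genes, the pattern most like that of Pf4 was Apoe (r = 0.928), followed by Zfp69 (0.923) and Efnb1 (0.921). Apoe was also the nearest to Treml1 (0.949), followed by Pdzph1 (0.933) and Col18a1 (0.931). Ppbp was nearest to Gucy1b1 (0.953), Slc6a15 (0.937) and Tnfsf4 (0.919). Ppbp and Gucy1b1 were both well above background in KLS and PreMegE alone, so their r rests in large part on signals at background. Gp1ba was nearest to Hdac10 (0.965), Gnb4 (0.963) and Ago1 (0.956), and Gp5 to Zmat3 (0.962), Cttn (0.951) and Rec8 (0.942). These 2 chains of 1 complex had no near gene in common among the 3 of each. For Gp9 the order was Ehd3 (0.947), Slamf1 (0.933) and Gpx2 (0.924), and Slamf1 encodes the CD150 antigen that was sorted on. Vwf was nearest to Adcy6 (0.955), Gpx2 (0.95) and Parm1 (0.941), and Itga2b to Tek (0.948), Itgb4 (0.933) and Robo3 (0.924). Selp was nearest to Ckb (0.944), Wfdc17 (0.932) and Map4k4 (0.928).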

How the data were processed

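Total RNA was isolated by the authors with TRIzol, amplified with Cy3-labelled CTP together with Agilent spike-in RNA, and hybridized to 1-colour whole mouse genome arrays. Per the file headers the scans were read with Agilent Feature Extraction 10.7.1.1, and the deposited scanner files give for each spot an intensity (gProcessedSignal, background-subtracted by that software), mean and background intensities, and flags. The authors also deposited a table of log2 values for the same arrays, whose scaling is not given in the sources used here. Its ranks followed the scanner intensity on each array (Spearman from 0.99983 to 0.99998), and it was used as an alternative.

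Spots flagged as outliers (80 to 283 on an array) were left out, spots of the same probe were averaged, and log2 intensity was taken minus the 75th percentile of the array. Of 41174 probes, 64.8% matched a RefSeq symbol through the accession in the files, and the symbols Tal1, Tubb1, Kit, Ly76, Ly6g, Cd68 and Igll1 were not analysed here. Some fraction had to show a probe well above background on each of its 3 arrays for the probe to be tested, and the 29532 probes that did, 71.7% of the probes, were fitted with limma 3.58.1 in R 4.3.3, with 1 mean for each fraction over all 21 arrays. P-values were adjusted over all tested probes by the Benjamini-Hochberg method, and calls needed an adjusted p under 0.05 together with a fold of at least 2. All 9 members passed the filter, some through the fractions in which they were high. The precision is limited by 3 arrays in a fraction, and p-values measure the spread between these samples, which may be technical. The fit was tested on simulated data first. Python 3.11.15, pandas 2.3.3 and matplotlib 3.10.9 were used for reading and plotting.

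The members and the gene lists were chosen with earlier results of these data known. All 9 members are named in each comparison, and of each list at most 4 called genes in each direction by size of change. Upstream windows and gene positions came from RefSeq on GRCm38.p6, and no array coordinate was used. The arrays lay on 9 slides, some of which held more than 1 fraction. Alternatives were quantile scaling, scaling on 7 of the 10 spike-in sequences, the deposited log2 table, normexp background correction (offset 50), no filter on dim probes, a slide block, a replicate block, no minimum fold, a fit to the compared fractions only, the mean of all probes of a gene, and leaving out each array in turn.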

Additional observations from a re-analysis of the deposited data

Results flagged for a closer look

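The change over the same step differed between the erythroid and the myeloid side, by limma's test of the difference itself, for 7 members at the second step and 6 at the third. Of all probes tested, 20.2% passed the same test at the second step and 39.9% at the third. Each value below is the log2 change on the erythroid side minus that on the myeloid side, with its standard error from 3 arrays in each fraction. Over the second step (PreMegE to CFUe against PreGM to GMP) it was -3.85 ± 0.36 for Itga2b, -3.50 ± 0.33 for Ppbp, -2.47 ± 0.44 for Pf4, -2.32 ± 0.35 for Treml1 and -1.82 ± 0.30 for Gp9. It was 1.06 ± 0.38 for Gp1ba and 1.11 ± 0.29 for Selp. The call of Gp1ba was lost with the slide block (limma adjusted p = 0.067) and with no filter on dim probes (0.064). It was also lost under normexp (0.18), and that of Selp with the mean of its probes (0.81). Under spike-in scaling Gp1ba turned to -0.47 and Selp to -0.42. Ppbp was above background in PreMegE but not in CFUe, PreGM or GMP, so its fitted difference is not a measured size, and under normexp it was -0.47, under 2-fold.

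Over the third step (CFUe to Ter119 against GMP to Mac1Gr1) the difference was -6.00 ± 0.75 for Gp5, -4.45 ± 0.38 for Gp1ba, -4.40 ± 0.44 for Pf4, -1.82 ± 0.35 for Treml1 and -1.40 ± 0.29 for Vwf. Gp1ba was well above background on no Ter119 or Mac1Gr1 array, and Gp5 on 1 GMP array, 1 Ter119 array and no Mac1Gr1 array. Vwf lost its call under spike-in scaling (-0.75, limma adjusted p = 0.24), and Treml1 was under 2-fold with normexp (-0.78). Itga2b alone of the 6 was positive, at 2.60 ± 0.36. The summed level of 12 granulocytic markers was 12.20 to 12.53 on the Ter119 arrays and 2.55 to 5.50 on the CFUe arrays, and its part in these differences was not tested.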

How the results depend on the processing

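Of 1458 single values recomputed under the alternatives, 1326 kept their direction and their side of the threshold, 48 lost the call, 43 gained it and 41 changed sign. Counts of members called stayed within 1.5 times in each comparison except 4 cases. From PreGM to GMP, 4 members were called under spike-in scaling in place of 7. From GMP to Mac1Gr1, 7 were called under spike-in scaling and 6 with no minimum fold, in place of 3. Between Ter119 and Mac1Gr1, 2 were called under normexp in place of 5. Calls over all 29532 probes moved as well. From PreGM to GMP they were 14518 under spike-in scaling in place of 3061. From GMP to Mac1Gr1 they were 22567 under spike-in scaling and 22249 with no minimum fold, in place of 16753. Between Ter119 and Mac1Gr1 they were 7180 under normexp in place of 12388. Spike-in scaling moved the median change over all probes from -0.02 to 0.99 from PreGM to GMP, from 0.17 to -1.86 from GMP to Mac1Gr1 and from 0.05 to -1.33 from CFUe to Ter119. The cause of the other changes was not tested.

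Sign changes of called values came under spike-in scaling alone. From CFUe to Ter119 they were Gp9 at -0.33 and Itga2b at -0.10, from GMP to Mac1Gr1 Pf4 at -0.19, between CFUe and GMP Treml1 at -0.29, and in the second-step difference Gp1ba at -0.47 and Selp at -0.42. The remaining sign changes were of values not called in the main analysis. Under spike-in scaling Ppbp was -0.097 from KLS to PreMegE, -0.83 from CFUe to Ter119, 0.82 from PreGM to GMP, -1.41 from GMP to Mac1Gr1, -0.94 between CFUe and GMP, -0.35 between Ter119 and Mac1Gr1 and 0.58 in the third-step difference, in which Selp was 0.20. From KLS to PreGM, Treml1 was -0.20 and Selp -0.44. From PreGM to GMP, Gp9 was 0.022, and between CFUe and GMP it was -0.44. From GMP to Mac1Gr1, Gp5 was -1.38, Gp9 -1.63, Treml1 -1.18 and Vwf -1.92, and between Ter119 and Mac1Gr1 Gp5 was -0.40. Under quantile scaling and the deposited log2 table, Ppbp was -0.034 and -0.020 from CFUe to Ter119 and -0.0072 and -0.0023 between Ter119 and Mac1Gr1, Gp1ba 0.027 and 0.039 from KLS to PreGM, Vwf -0.060 and -0.083 from GMP to Mac1Gr1, and Gp5 -0.14 and -0.20 between Ter119 and Mac1Gr1. Under normexp, Treml1 was 0.13 from CFUe to Ter119 and 0.057 between Ter119 and Mac1Gr1, and Gp1ba was 0.60 from GMP to Mac1Gr1 and 0.37 between Ter119 and Mac1Gr1. Gp5 between Ter119 and Mac1Gr1 was -0.40 with the slide block, and over the fits that left out 1 array it ran from -0.21 (without Ter119 replicate 3) to 0.81. Vwf from GMP to Mac1Gr1 was -0.086 as the mean of its probes and ran from -0.042 (without Mac1Gr1 replicate 2) to 0.30 when 1 array was left out.

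The main fit did not pair samples by replicate number. Over 27 pairs of equal number the correlation of deviations ran from -0.367 to 0.367 and exceeded 0.1 in 9. Pairs of unequal number were not compared, so these values cannot decide whether the numbers pair the samples. A replicate block left each count of members called as it was, at 8 of 9 from KLS to PreMegE for example, and the one call it changed was the second-step difference of Gp5, at 1.84 with an adjusted p of 0.0233 by limma. Levels of Ppbp outside KLS and PreMegE, and of Gp1ba and Gp5 in Ter119 and Mac1Gr1, are limited by signal over background.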
